A study of Mus musculus with 17 samples.

Results

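Arc, the activity-regulated cytoskeleton-associated protein gene, was followed across 17 hippocampal RNA-seq libraries of mice that carried or lacked the acetyltransferase CBP in forebrain excitatory neurons. The gene was chosen by its name, and it is 1 of the 55471 genes in the count table, matched by its symbol to the identifier ENSMUSG00000022602. Each library came from the hippocampus of a single male mouse, of the strain C57BL/6 in the labels and C57BL/6J in the study's methods, aged 3 to 6 months, and all mice received tamoxifen. CBP-ifKO mice carried floxed Crebbp alleles and the Camk2a-creERT2 transgene, a tamoxifen-inducible recombinase whose promoter is active in forebrain excitatory neurons, so CBP remained intact in interneurons, glia and other cells of the same tissue. Control mice kept a functional Crebbp; the study's methods describe them as littermates without the recombinase, while their sample labels name the creERT2 line. Each genotype was sampled in 3 treatments. Kindling consisted of repeated injections of 45 mg/kg of pentylenetetrazole (PTZ), which causes seizures by blocking inhibitory GABA-A receptors. Kindled names mice given this series in either genotype, although the study reports that no CBP-ifKO mouse entered the progressive seizure stage. Unkindled animals given saline form the Sal groups, kindled animals given saline at the end form the PTZ0 groups, and kindled animals given a further 45 mg/kg of PTZ form the PTZ45 groups. Tissue was taken 45 min after that last injection. The groups Control Sal, Control PTZ0, CBP-ifKO Sal, CBP-ifKO PTZ0 and CBP-ifKO PTZ45 held 3 libraries each, and Control PTZ45 held 2.

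Arc is an immediate early gene of neurons: its transcription starts within minutes of strong synaptic activity, through calcium and kinase signalling to factors such as SRF, MEF2 and CREB that recruit coactivators including CBP, and needs no new protein synthesis. Its mRNA travels into dendrites and is translated near active synapses, where Arc protein promotes the endocytosis of AMPA receptors and so tunes synaptic strength. Arc protein descends from a retrotransposon Gag protein and can assemble into capsid-like particles. In the hippocampus Arc is known as a marker of recently active principal neurons and as a gene required for lasting memory.

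The gene lies on the minus strand of mouse chromosome 15, at chr15:74669083-74672570 in GRCm38. Both annotated transcripts have 3 exons, and their coding sequence of 1188 bases lies wholly in exon 1, from 74671185 to 74672372. Exons 2 and 3 are untranslated sequence, and exon 3 alone spans 911 bases. The exons add up to 3057 bases in the count table. No annotated gene overlaps Arc, so no reads are shared with an antisense or embedded gene. The GC content of its longest transcript was 58.953%, above the median of 47.071% over all genes with a value.

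The libraries held between 5831992 and 18735643 counted reads. The genotype labels matched the deleted gene and the transgene: normalized counts of Crebbp were 1824 to 2429 in the 8 Control libraries and 1061 to 1337 in the 9 CBP-ifKO libraries, and those of Esr1, whose ligand-binding domain is part of the creERT2 fusion, were 41.0 to 77.8 and 703 to 941. Crebbp was measured over the whole gene and in all cells of the tissue, so the remaining counts hold both truncated transcripts and transcripts of cells without the recombinase. Markers of hippocampal principal neurons were present in every library, with summed normalized counts of 2779 to 4061 for 5 dentate granule genes and 2654 to 4678 for 4 CA1 genes. In 5 libraries the 6 markers of choroid plexus, the secretory tissue next to the hippocampus, summed to more than 10000 normalized counts, against 418 to 1122 in the other 12: Control Sal replicate 2, Control PTZ0 replicate 2, CBP-ifKO Sal replicate 1, CBP-ifKO PTZ0 replicate 3 and CBP-ifKO PTZ45 replicate 2. Values without them are given for Arc and for the counts of immediate early genes. The sample labels also name the sequencing lane: Control Sal and Control PTZ0 shared lane 3, Control PTZ45 and CBP-ifKO Sal shared lane 4, and CBP-ifKO PTZ0 and PTZ45 shared lane 5. For every comparison outside these pairs, lane and group cannot be told apart.

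In mice given saline last, Arc was already an abundant transcript. Normalized counts, which are read counts divided by a size factor for each library, were 707, 802 and 1011 in the 3 Control Sal libraries. These placed Arc between rank 2785 and rank 3887 among all genes of its library. The 3 Control PTZ0 libraries held 669, 684 and 663 normalized counts, a spread of only 1.63% of their mean. The CBP-ifKO Sal libraries gave 569, 712 and 780.4, and the CBP-ifKO PTZ0 libraries 723, 561 and 499.9. All 12 libraries of mice given saline last thus lay between 499.9 and 1011 normalized counts, whatever their genotype or kindling history. After the last PTZ injection the genotypes separated. The 2 Control PTZ45 libraries reached 4921 and 4272 normalized counts, and Arc rose to rank 345 and rank 419 of its library. The 3 CBP-ifKO PTZ45 libraries reached 843, 929 and 1289, so that the lower of the Control libraries stood above the highest CBP-ifKO library by a wide margin. Each of these values rested on 343 to 5565 reads of Arc, and the counting error alone was 1.34% to 5.40% of the value.

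Ordered by mean, Control PTZ45 came first with 4597 ± 459 normalized counts (SD, n = 2), followed by CBP-ifKO PTZ45 with 1020.2 ± 236 (n = 3), Control Sal with 839.9 ± 155 (n = 3), CBP-ifKO Sal with 687 ± 108 (n = 3), Control PTZ0 with 672 ± 11 (n = 3) and CBP-ifKO PTZ0 with 595 ± 115 (n = 3). Among neighbours in this order, Control PTZ45 alone was separated from the next group; every other adjacent pair overlapped. As a share of the Control Sal mean, the groups stood at 547.283%, 121.465%, 100%, 81.8%, 80.0% and 70.8%. Since the tissue was bulk hippocampus, fewer cells that express Arc and less Arc RNA in each cell cannot be told apart.

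**Figure D1:**
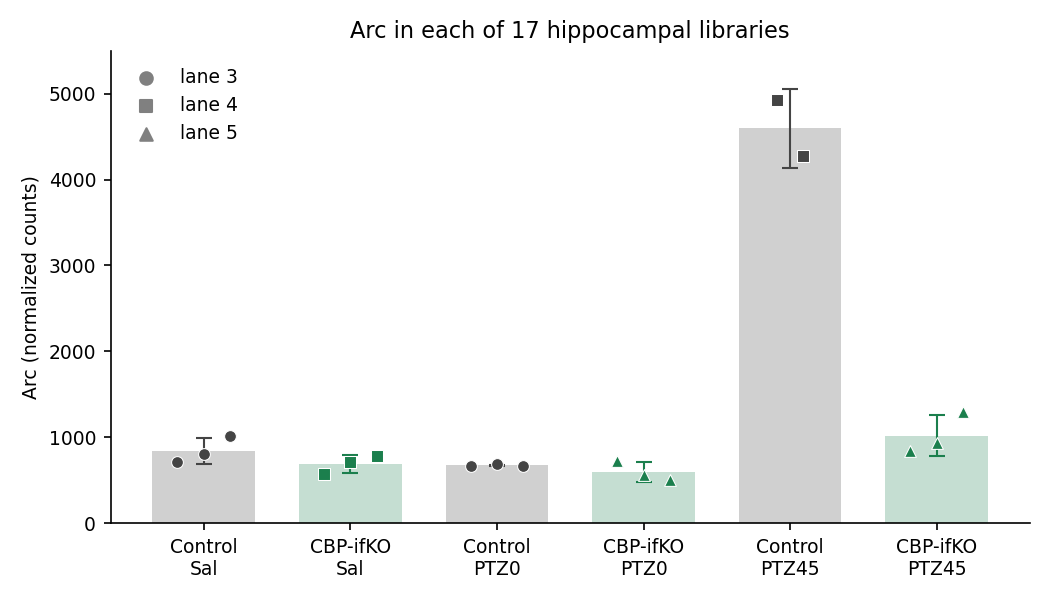
Normalized counts of Arc (y axis) in the 6 groups (x axis). Bars are group means with SD, points are libraries and their shape gives the sequencing lane; the 2 Control PTZ45 libraries sit at 4272 and 4921, and all 15 others lie at or below 1289.

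The first question was how far PTZ raised Arc in mice with functional CBP. In Control mice, Arc rose 5.46-fold from Sal to PTZ45, a log2 fold change of 2.45 ± 0.21 (SE; 95% interval 2.04 to 2.86; DESeq2 adjusted p = 2.04e-28). This comparison called 163 of 17367 tested genes higher (0.939%) at an adjusted p under 0.05, the threshold used throughout. Arc ranked 20 by fold change among the 13040 tested genes that averaged 50 or more normalized counts. The mean gained 3757 normalized counts, a quantity that grows with gene length, and 7 of all 55471 genes gained more. Against the kindled mice given saline, the rise was 6.84-fold (log2 2.77 ± 0.08, adjusted p = 1.85e-240, with 1.18% of tested genes called higher). Both comparisons use the same 2 Control PTZ45 libraries. Arc was called higher in each of them under all 14 alternative settings, with adjusted p-values of at most 3.19e-08 over Sal and 7.82e-13 over PTZ0, and without the choroid-rich libraries the log2 fold changes were 2.42 and 2.79. An exact permutation test of the 2 PTZ45 libraries against the 6 Control libraries given saline last gave a two-sided p = 0.0714, the smallest this design allows.

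In CBP-ifKO mice the same injection was followed by a much smaller difference. From Sal to PTZ45, Arc was 1.48-fold higher, a log2 fold change of 0.57 ± 0.15 (95% interval 0.28 to 0.86), with a DESeq2 adjusted p = 0.0445. The 3 PTZ45 values of 843, 929 and 1289 all exceeded the 3 Sal values of 569, 712 and 780.4. In this comparison 17 of 19757 tested genes were called higher (0.086%), and Arc ranked 29 by fold change among the 13024 tested genes of that abundance. The call was close to the threshold and was lost under most alternatives: it held in 6 of 15, with adjusted p-values from 5.17e-05 with a GC correction to 0.874 without CBP-ifKO PTZ45 replicate 3. That library had the highest Arc level of its group, and without it the log2 fold change was 0.37. The call was lost with edgeR (adjusted p = 0.421), without the choroid-rich libraries (log2 0.51 ± 0.18, adjusted p = 0.653) and in 5 of the 6 fits that each left out 1 library, although the log2 fold change stayed positive in every fit.

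Against CBP-ifKO PTZ0, a comparison within lane 5, Arc was 1.72-fold higher after PTZ, a log2 fold change of 0.78 ± 0.25 (95% interval 0.29 to 1.27) that did not pass the test (DESeq2 adjusted p = 0.671; 0.0607% of tested genes were called higher). The PTZ45 values again lay above all PTZ0 values of 723, 561 and 499.9, and the alternatives disagreed, with 4 of 15 giving a call. Both comparisons share the CBP-ifKO PTZ45 libraries. When the 6 CBP-ifKO libraries given saline last were pooled, the 3 PTZ45 libraries were higher by 0.66 on the log2 scale, and an exact permutation test over the 84 arrangements of the libraries gave a two-sided p = 0.0238, the smallest possible here, and 0.095 after adjustment over the 4 permutation tests made. No library of the saline groups reached the lowest PTZ45 library. Leaving out each library in turn moved that p between 0.0357 and 0.0714, which are the smallest values the fewer libraries allow, and without the choroid-rich libraries the difference was 0.60 (exact permutation p = 0.133, again the smallest possible).

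**Figure D2:**
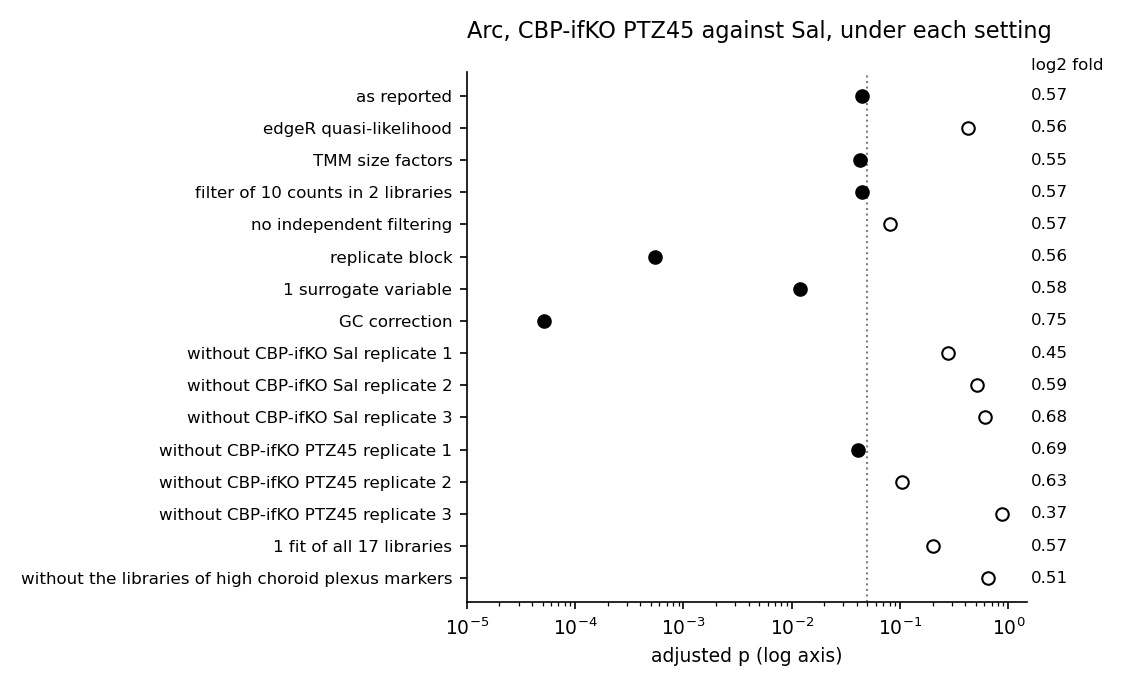
Adjusted p of Arc in CBP-ifKO PTZ45 against Sal (x axis, log scale) for each of 16 settings (y axis), with the log2 fold change printed at the right and a dotted line at 0.05. The log2 fold change lies between 0.37 and 0.75 in all settings, while the adjusted p falls on both sides of the line.

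The central comparison of the design asks whether the response to PTZ differed between the genotypes, and for Arc it did. The genotype-by-treatment interaction over Sal was -1.88 ± 0.32 on the log2 scale (95% interval -2.51 to -1.25; DESeq2 adjusted p = 3.19e-06), and over PTZ0 it was -1.99 ± 0.29 (adjusted p = 4.70e-09). Of the genes tested for these interactions, 0.329% and 0.423% were called lower. Both calls held under all 20 alternatives, with adjusted p-values of at most 0.00455 and 5.69e-05. Without the choroid-rich libraries the interactions were -1.90 (adjusted p = 0.00195) and -2.06 (adjusted p = 1.16e-05). Expressed in counts, Arc gained 333 normalized counts over Sal in CBP-ifKO mice, which was 8.86% of the Control gain, and this share lay between 5.29% and 11.2% when any single library was left out. Over PTZ0 the CBP-ifKO gain was 425 normalized counts or 10.8% of the Control gain of 3925, with a range of 7.42% to 13.1%.

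Compared directly after PTZ, CBP-ifKO mice had 0.222 times the Arc level of Control mice (log2 -2.17 ± 0.26, adjusted p = 1.95e-14), and the call held under all 14 alternatives. This comparison called 2.82% of tested genes lower. It crosses lanes. The study reports that PTZ came to cause seizures in all kindled Control mice, while no CBP-ifKO mouse entered the progressive seizure stage. Seizure and genotype therefore cannot be told apart in the PTZ45 groups. Seizure scores of the individual animals were not used here, so the part of convulsive activity in the difference was not tested. The CA1 marker sum was lower in CBP-ifKO than in Control libraries in every treatment, 2654 to 3501 against 3864 to 4678 normalized counts with no overlap, and Wfs1, Fibcd1 and Mpped1 were called lower in each genotype comparison. The same 3 comparisons called C1ql2 of dentate granule cells (log2 -1.52, -1.73 and -1.72 in Sal, PTZ0 and PTZ45) and Cpne4 of CA3 and CA2 (log2 -0.50, -0.40 and -0.43) lower. Of the other dentate markers, Tdo2 was called lower in PTZ0 (log2 -1.04) and PTZ45 (log2 -1.14), Pdzd2 lower in PTZ0 (log2 -0.50) and Prox1 higher in PTZ0 (log2 0.34), and the sum of the 5 overlapped between the genotypes in Sal mice (2959 to 4061 in Control and 3382 to 3626 in CBP-ifKO). The summed markers of CA3 and CA2 and of cortical layers did not overlap between the genotypes within any treatment. Both were lower in CBP-ifKO mice. Without overlap, astrocyte and thalamus sums were also lower in Sal and PTZ0, and interneuron sums in Sal and PTZ45. The striatum sum was higher without overlap in Sal and lower in PTZ45. Slc1a3 of astrocytes was called lower in Sal, and Calb2 of thalamus in Sal and PTZ0. Lamp5 of cortical layers was called lower in PTZ0 and PTZ45, and Drd1 of striatum in PTZ0. Over all tested genes the Sal and PTZ0 comparisons called 1.77% and 5.25% lower. Of the 53 markers in 12 cell type lists, none was called between PTZ45 and Sal in either genotype or in the interaction over Sal by DESeq2 or edgeR, and 3, 3 and 1 had an unadjusted p under 0.05. The part of these marker differences in the Arc result was not tested.

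**Figure D3:**
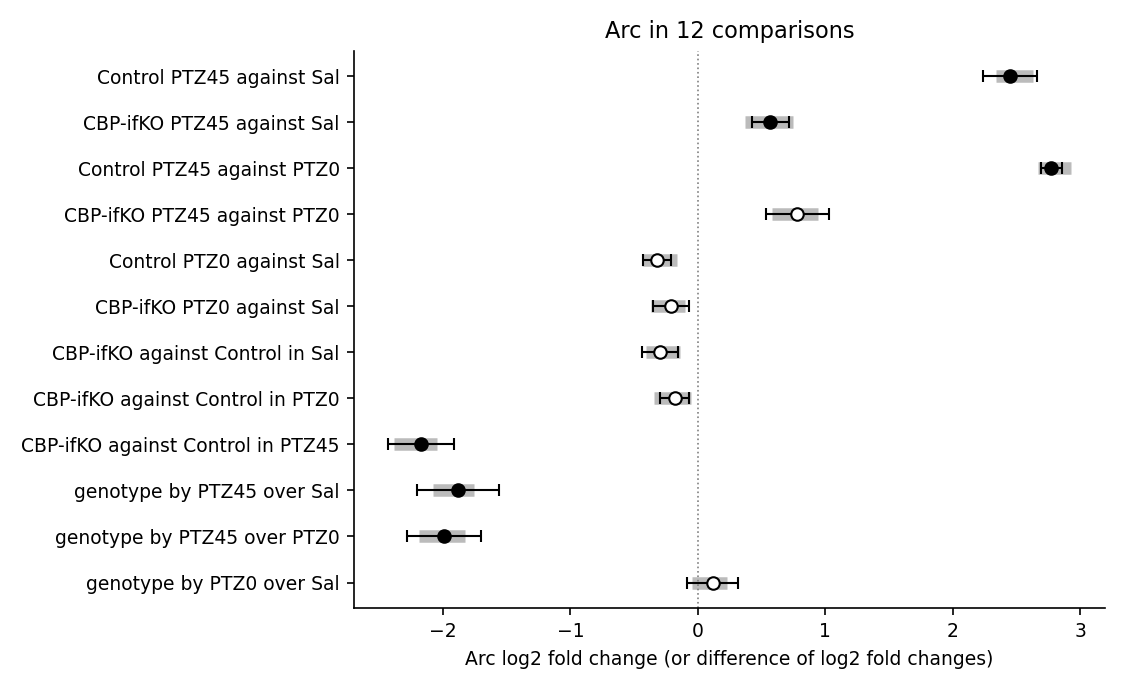
Log2 fold change of Arc (x axis) in 12 comparisons (y axis), with points and error bars for the DESeq2 value and SE, filled where the adjusted p is under 0.05, and grey bars for the range over the alternative settings. The Control PTZ45 rises (2.45 and 2.77) and the PTZ45 genotype difference and interactions (-2.17, -1.88 and -1.99) stand far from 0, and the comparisons among mice given saline last lie between -0.32 and 0.11.

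Among mice given saline last, differences in Arc were small. In Sal mice, CBP-ifKO libraries had lower Arc than Control libraries by 0.30 on the log2 scale (log2 -0.30 ± 0.14, 95% interval -0.57 to -0.02), and the groups overlapped. The difference did not pass (DESeq2 adjusted p = 0.393; 1.77% of tested genes were called lower) in this or any of the 15 alternatives. It lay between -0.41 and -0.14 with 1 library left out, and was -0.21 without the choroid-rich libraries. In PTZ0 mice the difference was -0.18 ± 0.11 (adjusted p = 0.435; 5.25% of tested genes were called lower), and it was called in 1 of 15 alternatives. Without the choroid-rich libraries this PTZ0 difference was -0.053. With Sal and PTZ0 strata combined, CBP-ifKO libraries were lower by a log2 difference of -0.24 (exact permutation test over 400 arrangements, two-sided p = 0.095), and without the choroid-rich libraries the difference was -0.12 (p = 0.556). Leaving out 1 library at a time moved the p between 0.03, without CBP-ifKO PTZ0 replicate 1, and 0.21.

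The kindling injections alone were followed by Arc values that were lower in both genotypes but did not pass the tests. Kindling here means the injections, since the study reports no progressive seizure stage in CBP-ifKO mice. In Control mice, where both groups shared lane 3, PTZ0 libraries stood below all Sal libraries, at a log2 fold change of -0.32 ± 0.11 (95% interval -0.54 to -0.11), which did not pass (DESeq2 adjusted p = 1.0; 0.00843% of tested genes were called). In CBP-ifKO mice the change was -0.21 ± 0.14 (adjusted p = 1.0; 0.0112% called), and the groups overlapped. With 1 library left out, this CBP-ifKO change lay between -0.37 and -0.098. Without the choroid-rich libraries the Control and CBP-ifKO changes were -0.37 and -0.22. An exact permutation test of kindling within both genotypes gave -0.26 with a two-sided p = 0.06, and -0.29 with p = 0.111 without the choroid-rich libraries. Leaving out 1 library at a time moved this p between 0.01 and 0.13, with 0.01 without CBP-ifKO PTZ0 replicate 1 and 0.02 without CBP-ifKO Sal replicate 1. The kindling effect did not differ between genotypes by the interaction test (0.11 ± 0.20, adjusted p = 1.0); DESeq2 called 0 of 38110 genes (0%) in this interaction, with 141 genes at an unadjusted p under 0.05, and edgeR called 0.

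The other immediate early genes show how Arc compares with its class. Of 18 immediate early transcription factors, 17 were tested and 15 were called higher in Control PTZ45 against Sal, with a median log2 fold change of 2.52 against 0.006 for all tested genes, of which 0.939% were called higher. Of 20 immediate early effectors, whose products include synaptic, secreted and signalling proteins, 15 were called higher, with a median of 0.95. In CBP-ifKO mice the same contrast called 6 of the 18 transcription factors (median 0.38) and 3 of the 20 effectors (median 0.17), against a median of 0.002 and 0.086% called higher over all genes. With edgeR these counts fell to 2 and 1, and without the choroid-rich libraries to 2 and 2. The interaction over Sal called 13 of the 18 transcription factors lower (median -1.95) and 9 of the 20 effectors (median -0.72), against a median of -0.004 and 0.329% called lower over all genes. Without the choroid-rich libraries the Control contrast called 15 transcription factors and 14 effectors, and the interaction 9 and 8.

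The 4 transcription factors with the largest Control folds were also called higher in CBP-ifKO mice, at smaller folds. Npas4, a neuron-specific factor induced by calcium entry, had a mean of 50.7 normalized counts in Control Sal and 3620 in Control PTZ45 (log2 6.16), and 32.5 and 158 in CBP-ifKO mice (log2 2.28, adjusted p = 1.11e-12; interaction -3.88). Fos, a subunit of the AP-1 factor, went from 39.6 to 2699 in Control mice (log2 6.08) and from 31.4 to 234 in CBP-ifKO mice (log2 2.91, adjusted p = 1.33e-25; interaction -3.18). Both kept a called rise in CBP-ifKO mice that was larger in fold than that of Arc. Fosb, a second AP-1 subunit, went from 29.4 to 1894 in Control mice (log2 6.00) and from 21.1 to 58.8 in CBP-ifKO mice (log2 1.42, adjusted p = 0.0413; interaction -4.57). Egr2, a zinc finger factor, went from 11.3 to 380.4 in Control mice (log2 5.11) and from 9.29 to 36.5 in CBP-ifKO mice (log2 2.17, adjusted p = 0.0239; interaction -2.92, adjusted p = 0.0396). The CBP-ifKO calls of Fosb and Egr2 were lost with edgeR and without the choroid-rich libraries, at adjusted p-values of 0.188 to 0.762.

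Among the effectors, Btg2, an antiproliferative gene that promotes mRNA deadenylation, rose from 209 to 3211 normalized counts in Control mice (log2 3.95) and from 135 to 336 in CBP-ifKO mice (log2 1.30, adjusted p = 1.64e-09; interaction -2.66). Dusp1, a phosphatase that switches off MAP kinases, rose from 88.7 to 649 (log2 2.84) and from 68.2 to 190.1 (log2 1.45, adjusted p = 9.27e-07; interaction -1.40). With edgeR only 1 effector was called in CBP-ifKO PTZ45 against Sal, so the calls of Btg2 and Dusp1 were not both kept. Arl4d and Gadd45g had no measurable rise in CBP-ifKO mice. Arl4d, a small GTPase of the ARF family, rose from 82.4 to 811 in Control mice (log2 3.29) and stood at 68.0 and 62.7 in CBP-ifKO mice (log2 -0.10; interaction -3.38). Gadd45g, a stress-inducible gene linked to DNA demethylation, rose from 61.1 to 516 in Control mice (log2 3.10) and stood at 48.6 and 49.8 in CBP-ifKO mice (log2 0.03; interaction -3.07). Arc thus fell between genes such as Fos and Btg2, with a remaining rise of larger fold, and genes such as Arl4d and Gadd45g, with none detected.

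Arc stood near the middle of its class by fold and near the top by counts gained. The 30 other immediate early genes called higher in Control PTZ45 against Sal were chosen by that contrast, so their Control values are a description. In Control mice 14 of them had a larger log2 fold change than Arc, around a median of 2.15. In CBP-ifKO mice 10 of them did, around a median of 0.31 and a range of -0.25 to 2.91. The CBP-ifKO log2 fold change of Arc was 23.2% of its Control value, next to a median of 23.7% for the 30 genes. In the interaction over Sal, 22 of the 30 were called lower, against 0.329% of all tested genes, and 12 had a more negative value than Arc. The interaction shares the Control libraries used to choose the genes, so these counts too are a description and no test. By the number of normalized counts gained over Sal, however, Arc exceeded all 30 in both genotypes; over PTZ0 it did so in Control mice, while in CBP-ifKO mice Plk2, a kinase gene of larger baseline level, gained more (2978 to 3424). Over all genes, 192 gained more than Arc in CBP-ifKO mice over Sal. Per kilobase of exon, Arc had the highest level among all genes of both immediate early lists in Control PTZ45, at 1504 normalized counts per kb, while in CBP-ifKO PTZ45 its 334 per kb was exceeded by Plk2 (762) and Nrn1 (421).

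**Figure D4:**
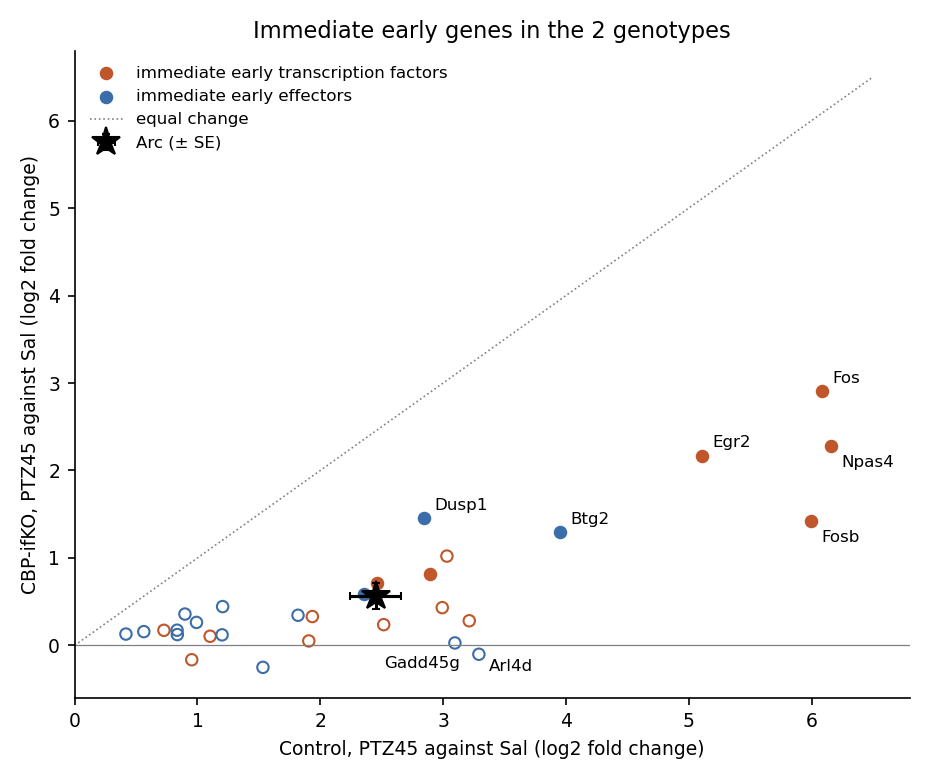
Log2 fold change of PTZ45 against Sal in Control (x axis) and CBP-ifKO mice (y axis) for 30 immediate early genes called higher in Control mice and for Arc (star, with SE). Filled points were called in CBP-ifKO mice and the dotted line marks equal change; Arc, at 2.45 and 0.57, lies far below the line.

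Some immediate early genes were lower in CBP-ifKO mice without any PTZ, and Arc was not among the calls. In Sal mice 1 of 13 tested transcription factors (Junb, log2 -0.69) and 5 of 20 effectors were called lower, against 1.77% of all tested genes; edgeR called 0 and 3. The effectors were Bdnf, a neurotrophin (log2 -0.73), Nptx2, a secreted pentraxin that clusters AMPA receptors (log2 -1.05), Ptgs2, which encodes cyclooxygenase-2 (log2 -0.44), Btg2 (log2 -0.61) and Nrn1, a neurite outgrowth factor (log2 -0.38). These names were chosen after their values were seen. The corresponding value of Arc was -0.30.

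The genes whose products act on Arc transcription, carry its mRNA or bind its protein gave few calls. Of 12 regulators of the Arc gene (SRF and its MRTF and ELK partners, MEF2 factors, CREB, CRTC1, CBP and p300), DESeq2 called 0 in Control PTZ45 against Sal, 0 in CBP-ifKO PTZ45 against Sal and 0 in the interaction; 2, 1 and 0 of them had an unadjusted p under 0.05, and edgeR called 0 in each. The largest Control value belonged to Mef2c (log2 0.28). Between genotypes after PTZ, Crebbp itself (log2 -0.98) and Srf (log2 -0.54, adjusted p = 0.0455) were called lower, against 2.82% of all tested genes, and in Sal mice Crebbp alone was (log2 -0.79, against 1.77%). In PTZ0 mice Crebbp was called lower (log2 -0.78, against 5.25%), and Ep300, which encodes the CBP paralogue p300, was called higher (log2 0.29, adjusted p = 0.0149, against 1.43%).

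The list of mRNA handling factors, which covers the exon junction complex, nonsense-mediated decay and dendritic transport, held a single call in 12 genes. Hnrnpa2b1, an RNA-binding protein that recognizes transport signals in dendritic mRNAs including Arc, had means of 3411 ± 280.0 normalized counts in Control Sal (n = 3), 6411 ± 366 in Control PTZ45 (n = 2), 3462 ± 338 in CBP-ifKO Sal (n = 3) and 3701 ± 213 in CBP-ifKO PTZ45 (n = 3). Its rise in Control mice was 0.91 on the log2 scale (adjusted p = 2.68e-21), its CBP-ifKO value was 0.09, and the interaction was -0.81 (adjusted p = 2.65e-07). In Sal mice it did not differ between genotypes beyond its error (log2 0.02 ± 0.09). Its Control rise and negative interaction thus resembled those of Arc at a smaller size, while no rise was called in its CBP-ifKO contrast.

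Of 15 protein partners of Arc, 4 AMPA receptor subunits and 4 genes of Arc turnover (ubiquitin ligases and kinases), none was called by DESeq2 or edgeR in Control PTZ45 against Sal, CBP-ifKO PTZ45 against Sal or the interaction over Sal. At an unadjusted p under 0.05 there were 1, 2 and 0 partners, 0, 0 and 0 receptor subunits, and 1, 0 and 0 turnover genes in the 3 comparisons. The largest Control values in these lists were those of Sh3gl1, an endophilin (log2 -0.24), Gria4 (log2 0.18) and Gsk3a (log2 -0.19). After PTZ, 3 synaptic genes were called lower in CBP-ifKO than in Control mice: Sh3gl2, another endophilin (log2 -0.42), Dlg4, which encodes PSD-95 (log2 -0.33), and the AMPA receptor subunit Gria3 (log2 -0.36), in a comparison that called 2.82% of all tested genes lower. With edgeR the calls of Sh3gl2 and Dlg4 were lost. In PTZ0 mice Dlg4 (log2 -0.26) and Gria3 (log2 -0.24) were also called lower, in a comparison that called 5.25% of all tested genes lower. The names of these 3 genes were chosen after their values were seen.

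Of 20 other genes derived from retrotransposon Gag sequences, the relatives of Arc by origin, 19 were matched in the table and 17 were tested; none was called in the same 3 comparisons by DESeq2 or edgeR, and none had an unadjusted p under 0.05. Their median log2 fold changes were 0.03 in Control and 0.08 in CBP-ifKO mice, beside 2.45 and 0.57 for Arc.

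The pattern of Arc over all 17 libraries was matched most closely by other immediate early genes. Among the 13040 other genes that averaged 50 or more normalized counts, the largest Pearson correlations of log2 levels with Arc were those of Nr4a1, an orphan nuclear receptor (r = 0.988), Fosb (0.979), Egr4 (0.977), Btg2 (0.975), Ovca2 (0.969), Npas4 (0.968), Dusp6 (0.964) and the unclassified locus Gm38257 (0.959). Over all genes the median was 0.016. The lowest r for Nr4a1 on leaving out any library was 0.979. These are descriptions over 17 libraries, 2 of which hold the high values of each gene. Ovca2 and Gm38257 were in none of the lists. Ovca2, a predicted serine hydrolase, had means of 129 normalized counts in Control Sal, 646 in Control PTZ45, 118 in CBP-ifKO Sal and 172 in CBP-ifKO PTZ45, with a Control log2 fold change of 2.32 and an interaction of -1.74.

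A different set of genes followed Arc within the groups. Deviations of each library from its group mean in log2 Arc ranged from -0.26 to 0.36, with the widest spread in CBP-ifKO PTZ45, where replicate 1 stood at -0.25 and replicate 3 at 0.36. The genes whose deviations were most like those of Arc were St3gal2 (r = 0.918), Mtmr4 (0.910), Cacng8 (0.909), Neurl4 (0.906), Trappc10 (0.900), the synaptic vesicle gene Syp (0.887), the kinase gene Ptk2b (0.885) and Reps1 (0.882), and the median over all genes was 0.0587. None of these 8 was called in either PTZ45 against Sal contrast or in the interaction over Sal. Their deviations were smaller than those of Arc in most libraries. All genes of a library share its size factor and its dissection: the summed CA1 markers had an r of 0.692 with Arc in the same deviations and the summed choroid plexus markers an r of -0.451, and the part of either was not tested. Immediate early transcription factors had a median r of 0.457 in deviations and 0.94 in levels.

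**Figure D5:**
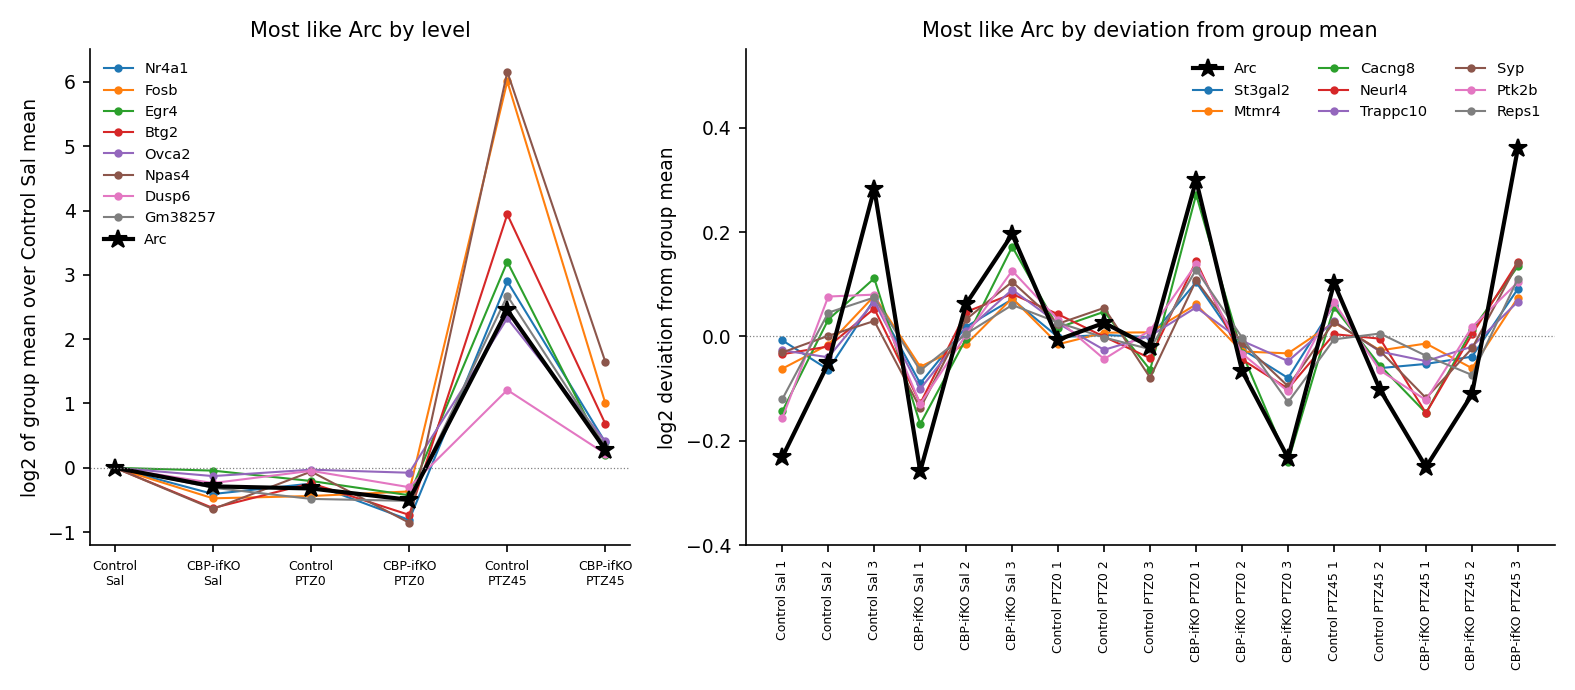
Left, log2 of the group mean over the Control Sal mean (y axis) in the 6 groups (x axis) for Arc and the 8 genes most like it in level. Right, log2 deviation of each library from its group mean (y axis) in the 17 libraries (x axis) for Arc and the 8 genes most like it in deviation, where Arc spans -0.26 to 0.36.

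The rise of Arc was not shared by its chromosomal neighbours. Within 250 kb there were 17 protein-coding genes, of which 4 averaged 50 or more normalized counts and 5 were tested. DESeq2 called none of the 5 in Control PTZ45 against Sal or in the interaction; 3 and 0 had an unadjusted p under 0.05, and edgeR called 0 in each. Jrk, the nearest on the side of higher coordinates at 29.7 kb, had a Control log2 fold change of -0.42 ± 0.18 (adjusted p = 0.448), and Them6 at 48.6 kb had -0.26. On the other side Mroh4, at 32.7 kb, averaged 1.87 normalized counts, too few to compare. Adgrb1, an adhesion receptor of synapses at 79.6 kb, was the only call: it was lower in CBP-ifKO PTZ45 than in CBP-ifKO Sal (1341 against 1754 normalized counts, log2 -0.38 ± 0.09, adjusted p = 0.0167, with 0.208% of tested genes called lower), with a Control value of -0.26 ± 0.10 (adjusted p = 0.351). With edgeR the call of Adgrb1 was lost.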

How the data were processed

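Gene counts were used as the authors deposited them: single-end reads of 50 bases were trimmed (Trim Galore 0.6.4), aligned to GRCm38 with STAR 2.6.1, kept above a mapping quality of 10 and counted over Ensembl exons with Rsubread; the strand setting is not given in the sources used here. 1 of 18 count columns, named in the pattern of Control PTZ45, matched no sample and was not analysed here. Symbols came from GENCODE M21, which held 99.411% of identifiers. Each contrast was fitted on its own libraries with DESeq2 1.42.0 (Wald test, Benjamini-Hochberg adjustment over all genes, independent filtering), and interactions on 4 groups. Alternatives were edgeR 4.0.16 quasi-likelihood, TMM size factors, a filter of 10 counts in 2 libraries, no independent filtering, a replicate block, 1 surrogate variable (sva 3.50.0), a GC correction, 1 fit of all 17 libraries, and leaving out each library; permutation tests (log2 of normalized count plus 1) and the omission of choroid-rich libraries were added after seeing the data. The fits were tested on simulated data. From each list, up to 4 called genes with the largest Control fold were named, or the largest value where none was called. Of 105 list genes 104 were matched. Arc, the lists and the tests were chosen with earlier results of these data known. Each library is 1 mouse, and no libraries agreed within sampling noise.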

Additional observations from a re-analysis of the deposited data

Results flagged for a closer look

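For Arc, the response to PTZ differed between Control and CBP-ifKO mice by the test of the difference itself, the genotype-by-treatment interaction in DESeq2. The interaction was also called for 9 genes named from the lists. Those genes were named for their calls and their large Control folds in the same libraries, which favours a negative sign. Their values are therefore a description. For Arc the interaction on the log2 scale was -1.88 over Sal and -1.99 over PTZ0. Over Sal it was -4.57 for Fosb, -3.88 for Npas4, -3.38 for Arl4d, -3.18 for Fos, -3.07 for Gadd45g, -2.92 for Egr2, -2.66 for Btg2, -1.40 for Dusp1 and -0.81 for Hnrnpa2b1. A further 5 genes were chosen for a level pattern like that of Arc in the same libraries, which fixes the sign, so their values are a description and no test: -2.91 for Egr4, -2.09 for Nr4a1, -1.99 for Gm38257, -1.74 for Ovca2 and -0.76 for Dusp6. The calls of Dusp1 (adjusted p = 0.0702) and Egr2 (adjusted p = 0.0991) were lost with edgeR. In every one of these genes the Control PTZ45 group consists of the same 2 libraries.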

How the results depend on the processing

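Of the settings tried, the rise of Arc in Control mice, the genotype difference after PTZ and both interactions with the last injection kept their direction and their call in all. The CBP-ifKO rise over Sal kept its direction but not its call: it was 0.56 with edgeR (adjusted p = 0.421), 0.57 without independent filtering (0.0804), 0.57 in 1 fit of all libraries (0.200), 0.51 without the choroid-rich libraries (0.653) and 0.37 to 0.69 when each library was left out. The replicate numbers do not pair the libraries (same-number correlations of -0.31 to 0.48 in this contrast); with a replicate block the value was 0.56 (adjusted p = 0.000549), and the block gave 2.61 for Control over Sal and -2.05 for the interaction. Over PTZ0 the CBP-ifKO rise was 0.90 and called with a GC correction (6.69e-08), and 0.58 to 0.94 on leaving out a library, with calls when PTZ0 replicate 1, PTZ45 replicate 1 or PTZ45 replicate 3 of that genotype was left out. On leaving out a library, Control PTZ0 against Sal ranged from -0.44 to -0.16 (called without Control Sal replicate 1, adjusted p = 0.0204), the genotype difference in PTZ0 from -0.34 to -0.068 (called without CBP-ifKO PTZ0 replicate 1, 0.0255) and the kindling interaction from -0.045 to 0.23. The permutation differences ranged from 0.48 to 0.79 for the last injection in CBP-ifKO mice, with 0.60 without the choroid-rich libraries, from -0.31 to -0.17 for genotype and from -0.33 to -0.19 for kindling. In CBP-ifKO PTZ45 against Sal, the 6 called transcription factors became 2 with edgeR or without the choroid-rich libraries and 3 to 5 on leaving out a library, the 3 called effectors 1 with edgeR, 5 in 1 fit of all libraries and 2 to 4 on leaving out a library, and 1 mRNA handling gene was called in 1 fit of all libraries. Signs turned for values near 0. In that contrast these were Arl4d (0.0046 with a GC correction, -0.33 to 0.086 on leaving out a library), Gadd45g (-0.019 with the replicate block, -0.21 without the choroid-rich libraries, -0.25 to 0.18) and Gsk3a (0.13 with a GC correction, -0.20 to 0.018). In Control mice they were Gria4 (-0.079) and Mef2c (-0.051) with 1 surrogate variable and Gsk3a (0.015) with a GC correction. In the interaction they were Gsk3a (-0.012 without the choroid-rich libraries, -0.017 to 0.21), Gria4 (-0.11 to 0.13), Mef2c (-0.35 to 0.017) and Sh3gl1 (-0.090 to 0.099). Of the genes most like Arc within groups, 3 to 7 of the 8 remained on leaving out a library. The cause of these shifts was not tested, beyond the smaller number of libraries where some were left out. Counting error was below the spread between mice in all groups but Control PTZ0, where it was 3.62% to 4.14% against a spread of 1.63%, so that the tightness of that group cannot be read as precision.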
